A study of Mus musculus with 12 samples.

Results

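The 5 transcription factor genes described here belong to the oligodendrocyte lineage, namely Olig1, Olig2, Sox10, Nkx2-2 and Sox8, and were followed in cells sorted from the embryonic mouse cortex. The members were the probe sets of the deposited array table whose only gene symbol is 1 of these 5 genes, which gave 7 of 22339 probe sets with a single symbol, 3 for Sox10 and 1 for each of the others. RNA was measured on 12 Affymetrix arrays in 4 groups of 3. MGE cells, which descend from progenitors of the medial ganglionic eminence, were taken on E14.5 or E18.5 from embryos with Nkx2-1-Cre (Tg) and the Rosa26 reporter allele R26R-YFP (fl/fl). The CGE groups, of E16.5 and E18.5, were Nkx2-1-Cre;Dlx1-lox-Venus-lox, in which Cre removes Venus from the Nkx2-1 lineage, so that cells of the lateral and caudal eminences keep it. All groups carried Nkx2-1-Cre, were on a mixed C57BL/6 and CBA background and were sorted by fluorescence from pooled, dissociated cortex. The 2 reporters differ in what they can label. YFP stays on in every descendant of a cell that once expressed Cre, whatever that descendant has become, whereas Venus is driven from Dlx1, a gene of GABAergic precursors. Origin and reporter therefore cannot be told apart in a comparison of MGE with CGE cells, whereas both days of 1 origin share the reporter. The replicates are titled biological, without the number of embryos behind each.

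Oligodendrocytes, the myelinating cells of the central nervous system, arise from migratory precursors. The first of these precursors in the forebrain come from the Nkx2-1 territory of the ventral telencephalon, the same region that produces MGE interneurons. OLIG1 and OLIG2 are basic helix-loop-helix factors encoded by neighbouring genes. OLIG2 is needed to specify the lineage and is also made by ventral progenitors of neurons, and OLIG1 acts later in maturation. SOX10 and SOX8 are HMG-box factors of the SoxE group, together with SOX9, and SOX10 activates myelin genes directly. NKX2-2 is a homeodomain factor that promotes differentiation of precursors.

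The sequences just upstream of 3 of the 5 genes are shown because these genes move together in MGE cells and belong to 3 different factor families. They are the 250 bases before the transcription start in RefSeq on GRCm38.p6, written 5′ to 3′ in the direction of the gene. Capitals mark every match to 3 motifs, searched on both strands. One is the E-box CANNTG, the general site of basic helix-loop-helix factors, and the others are ACAAAG and ACAATG, sites of HMG-box factors. Olig1 and Sox10 are not among the promoters used here.
Olig2 (chr16:91225300-91225549, plus strand): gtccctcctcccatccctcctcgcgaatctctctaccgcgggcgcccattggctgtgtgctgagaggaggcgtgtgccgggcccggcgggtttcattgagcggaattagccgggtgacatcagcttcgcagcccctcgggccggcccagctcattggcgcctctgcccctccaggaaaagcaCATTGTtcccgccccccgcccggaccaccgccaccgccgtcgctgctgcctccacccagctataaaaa
Nkx2-2 (chr2:147186403-147186652, minus strand): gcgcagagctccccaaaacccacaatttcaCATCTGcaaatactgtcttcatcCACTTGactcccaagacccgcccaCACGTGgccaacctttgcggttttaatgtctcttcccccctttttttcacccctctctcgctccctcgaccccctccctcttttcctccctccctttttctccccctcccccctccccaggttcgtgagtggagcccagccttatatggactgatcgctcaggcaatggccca
Sox8 (chr17:25570687-25570936, minus strand): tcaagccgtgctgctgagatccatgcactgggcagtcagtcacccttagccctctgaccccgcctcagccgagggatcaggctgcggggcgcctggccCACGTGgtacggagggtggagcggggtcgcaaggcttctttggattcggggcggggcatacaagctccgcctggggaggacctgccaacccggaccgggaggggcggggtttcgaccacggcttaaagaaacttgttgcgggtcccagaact
Nkx2-2 held 3 E-boxes and Sox8 held 1, while Olig2 held no E-box and 1 ACAATG site, which is written CATTGT on this strand. No ACAAAG site lay in these windows. Among all 32851 promoter windows of this length, 66.2% held an E-box, 16.46% an ACAAAG site and 10.7% an ACAATG site, so an E-box in such a window is common. The GC content was 66.8% for Olig2, 56.4% for Nkx2-2 and 65.6% for Sox8, against a median of 52.4%. These are matches of letters, and binding was not measured.

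The values are deposited log2 intensities. A level of 1 probe set can be compared between arrays, but not with the level of another probe set. The 40th percentile of an array lay between 7.10 and 7.17, and a probe set was tested when it lay above this level on at least 3 of the 12 arrays. All 7 member probe sets passed, but 5 of them, those of Olig2, Sox10 and Nkx2-2, did so through the MGE E18.5 arrays alone, so that they had to differ between groups. No detection calls were used, and differences between dim readings can be understated. Replicate arrays correlated at r = 0.972 to 0.995 over all probe sets. MGE E14.5 replicates 1 and 2 were the closest pair, with an SD of 0.231 for their log2 differences against 0.376 to 0.518 for the others, and treating them as 1 sample changed no call of a member.

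The late lineage comparison asks how the factors differ between MGE and CGE cells on the same day, E18.5. All 5 genes were higher in MGE cells, by 2.75 to 6.49 on the log2 scale for the probe set with the highest mean of each gene. Nkx2-2 and Olig1 had the 4th and 6th largest absolute differences among the 16008 probe sets tested, and the brightest Sox10 probe set had the 8th. All 7 member probe sets were called higher at an adjusted p under 0.05, against 13.0% of all probe sets, a count to be read with the filter in mind. The groups did not overlap for any of the 7, as was the case for 36.8% of all probe sets.

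Nkx2-2 read 10.64, 10.49 and 11.20 (log2 intensity, replicates 1 to 3) in MGE cells at E18.5 and 4.07, 4.31 and 4.50 in CGE cells. The CGE readings lay near the bottom of the array, at a mean of the 4.92th percentile, and the MGE readings at the 90.3th. The difference was 6.49 ± 0.23 (log2 ± SE, n = 3 arrays per group; limma, adjusted p = 9.4e-09), and it can understate the change, since the CGE readings were dim.

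Olig1 read 12.11, 11.96 and 12.50 in MGE cells and 5.32, 6.11 and 5.87 in CGE cells. Its MGE level at E18.5 was at the 97.5th percentile of the arrays. The difference was 6.42 ± 0.26 (adjusted p = 1.7e-08). Olig2, its neighbour on chromosome 16, read 10.16, 9.77 and 10.78 in MGE cells and 5.82, 6.0 and 5.72 in CGE cells. The difference of Olig2 was 4.39 ± 0.21 (adjusted p = 5.5e-08).

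For Sox10 the 3 probe sets had the same direction and unequal sizes. The brightest, 1451689_a_at, read 10.68, 10.40 and 11.31 in MGE cells and 4.83, 4.62 and 4.56 in CGE cells, a difference of 6.13 ± 0.23 (adjusted p = 9.4e-09). The others, 1424985_a_at and 1425369_a_at, reached 8.18 ± 0.27 and 7.64 ± 0.36 in MGE cells (mean ± SD, n = 3) and differed by 2.83 ± 0.18 and 2.07 ± 0.20. Which transcript each probe set reads was not given in the sources used here, so the size of the Sox10 difference depends on the probe set, while its direction does not.

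Sox8 read 10.78, 10.31 and 11.60 in MGE cells and 9.01, 7.65 and 7.79 in CGE cells. It was the member whose CGE arrays at E18.5 lay above the filter level, all 3 of them. The difference was 2.75 ± 0.37 (adjusted p = 0.00021), and it was 3.18 without CGE E18.5 replicate 1, the high array.

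**Figure D1:**
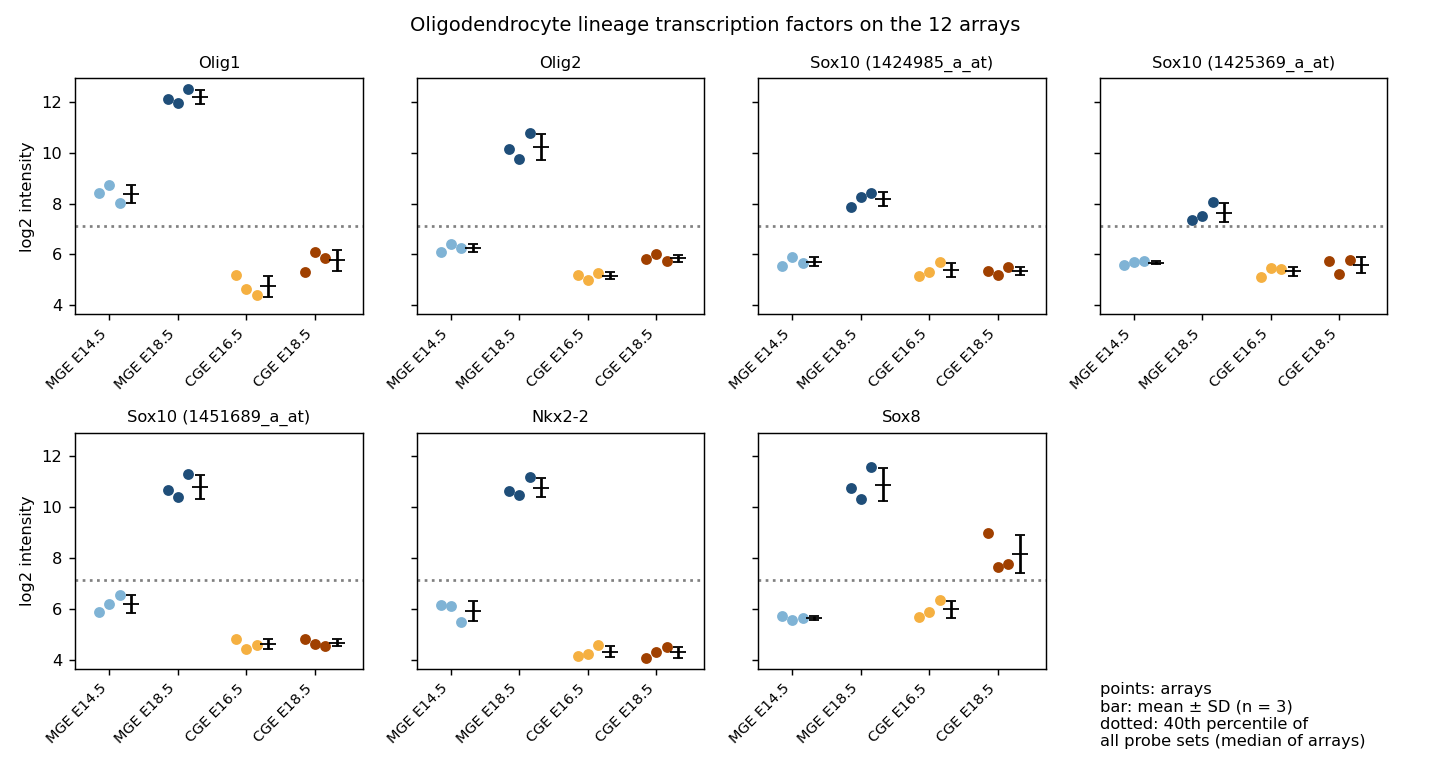
Panels give the log2 intensity of 1 probe set each (y axis) against the 4 groups (x axis). Points are the 12 arrays, the bar is the mean ± SD of 3 arrays, and there is a dotted line for the median 40th percentile of the arrays. In all 7 panels the MGE E18.5 arrays are highest, and at E14.5 the MGE arrays lie above the dotted line for Olig1 alone.

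The order of appearance in MGE cells was read from the 2 days that were sampled. At E14.5, Olig1 was the single member above the filter level, with 8.41, 8.72 and 8.0, at a mean of the 59.9th percentile. Olig2 read 6.09, 6.40 and 6.26, Sox10 (1451689_a_at) 5.87, 6.19 and 6.56, and Nkx2-2 6.16, 6.12 and 5.49 on the same arrays. Sox8 read 5.71, 5.58 and 5.66. These 4 genes were thus below the filter level on every E14.5 array.

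The early lineage comparison set these MGE arrays against CGE cells at E16.5, so that day, origin and reporter cannot be told apart in it. Of the 7 probe sets, 4 were called higher in MGE cells, 1 for each of Olig1, Nkx2-2, Sox10 and Olig2, against 4.17% of all probe sets. Olig1 led with 3.64 ± 0.26 (adjusted p = 4.2e-06), with CGE readings of 5.18, 4.62 and 4.41. Nkx2-2 was higher by 1.61 ± 0.23 (adjusted p = 0.00065), with CGE readings of 4.16, 4.21 and 4.56. Sox10 was higher by 1.58 ± 0.23 (adjusted p = 0.0008), with CGE readings of 4.83, 4.45 and 4.60. Olig2 was higher by 1.10 ± 0.21 (adjusted p = 0.0059), with CGE readings of 5.18, 5.0 and 5.27. For Nkx2-2, Sox10 and Olig2 the groups did not overlap, although both lay below the filter level, and 31.7% of all probe sets had groups without overlap. The other Sox10 probe sets were not called, at 0.33 (95% interval -0.060 to 0.72) and 0.34 (-0.086 to 0.77). Sox8 was -0.34 ± 0.37 (-1.14 to 0.46) and was not called.

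**Figure D2:**
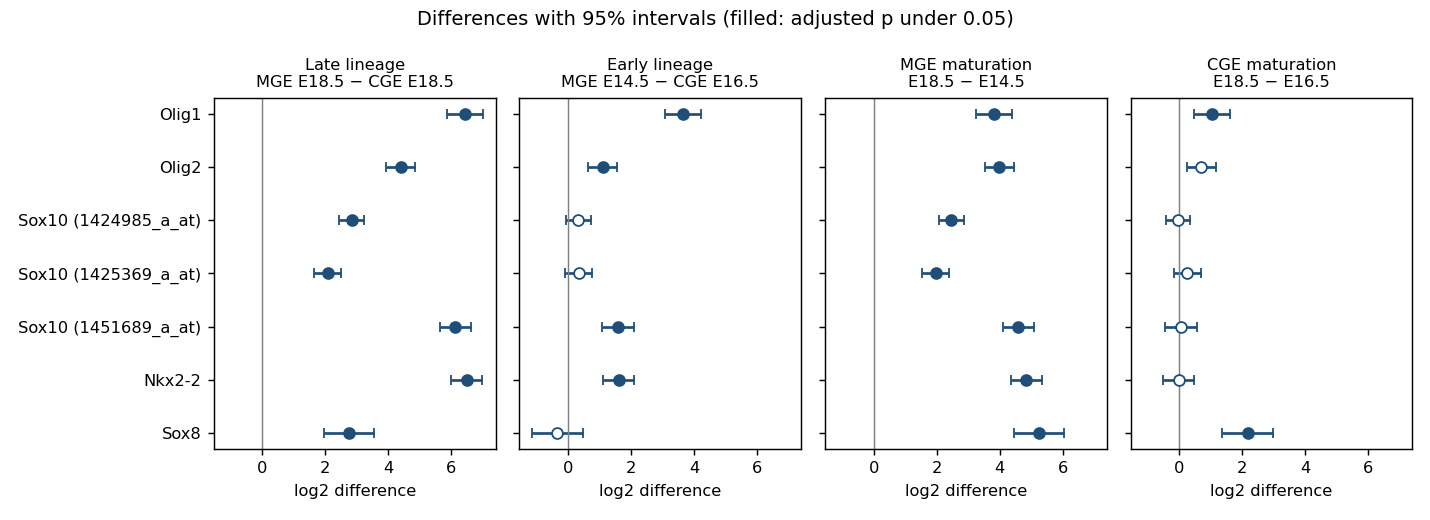
Log2 differences (x axis) of the 7 member probe sets (y axis) in 4 comparisons, with 95% intervals and filled points for an adjusted p under 0.05. All 7 intervals lie above 0 in the late lineage comparison and in MGE maturation, whereas in CGE maturation Sox10 and Nkx2-2 lie between -0.039 and 0.25.

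From E14.5 to E18.5 all 7 probe sets rose in MGE cells, against 10.3% of all probe sets called higher, again with the filter in mind. Sox8 had the largest rise of the members, 5.25 ± 0.37 (adjusted p = 1.2e-06), the 7th largest absolute change among the 16008 probe sets. Nkx2-2 rose by 4.85 ± 0.23, Sox10 by 4.59 ± 0.23, Olig2 by 3.98 ± 0.21 and Olig1 by 3.81 ± 0.26. The other Sox10 probe sets rose by 2.47 ± 0.18 and 1.97 ± 0.20. No E14.5 array overlapped an E18.5 array for any of the 7, which held for 46.2% of all probe sets.

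Each gene was also set against its own level in the 6 CGE arrays, as a description. At E14.5 Olig1 had covered 45% of the log2 distance between its CGE mean and its MGE level at E18.5, with 42.6% to 47.8% when 1 array was left out. Sox10 had covered 25.3% (22.5% to 28.1%), Nkx2-2 25.1% (23.2% to 28.4%) and Olig2 15.9% (14.1% to 17.6%). Sox8 lay 1.42 below its CGE mean, which includes the CGE E18.5 arrays where it was high. The Sox10 values are those of 1451689_a_at, and the dimmer probe sets 1424985_a_at and 1425369_a_at had covered 12.4% and 10.04%. The share of Olig2 was 21.6% with the CGE E16.5 arrays alone as the base and 9.24% with those of E18.5. On this scale Olig1 came first and Sox8 last, while the place of Olig2 against Sox10 depended on the Sox10 probe set. As linear intensity, the E14.5 level was 7.12% of the E18.5 level for Olig1, 6.32% for Olig2, 4.15% for Sox10 (1451689_a_at), 3.46% for Nkx2-2 and 2.63% for Sox8, with 18.1% and 25.5% for the dimmer Sox10 probe sets. Olig2 thus stood below Nkx2-2 by the log2 distance and above it by the intensity ratio, so its place in the order was not settled. By the intensity ratio, the ranges with 1 array left out overlapped for Olig1 (6.33% to 8.11%) and Olig2 (5.38% to 7.64%). The dimmer Sox10 probe sets stood above Olig1 on that scale. The first place of Olig1 therefore holds for the log2 distance only. The distances depend on how each probe set reads a dim transcript. They do not show that an mRNA was absent at E14.5.

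Within an array, the ratio of 2 members is free of anything that scales the whole array. Among the 10 pairs of members, the log2 ratio did not overlap between E14.5 and E18.5 in 6. How often this holds for pairs of other probe sets was not computed. Of all single probe sets, 46.2% did not overlap between these days. Sox10 was read from 1451689_a_at, and the dimmer Sox10 probe sets, with rises of 2.47 and 1.97, rose less than every other member. In these 6 pairs Nkx2-2 rose by 1.04 more than Olig1 and by 0.87 more than Olig2, Sox8 by 1.44 more than Olig1, 1.26 more than Olig2 and 0.66 more than Sox10, and Sox10 by 0.61 more than Olig2. Each of them had p = 0.1 in an exact two-sided permutation test, the smallest that 3 against 3 arrays allow, and an adjusted p of 0.167 over the 10 pairs, so none passed. Olig1 and Olig2, the adjacent pair, rose by amounts that differed by 0.17, and their ratios overlapped (exact permutation p = 0.5).

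**Figure D3:**
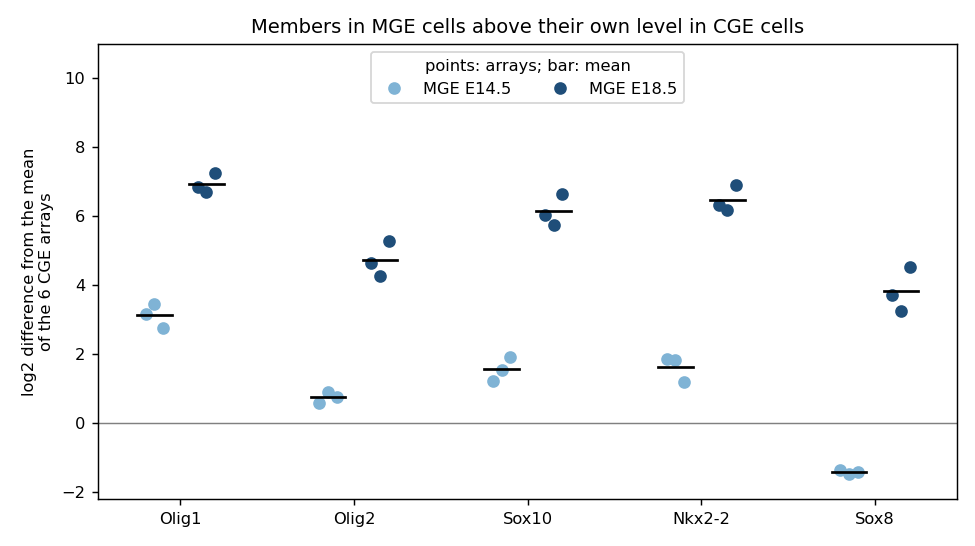
Log2 difference (y axis) of each MGE array from the mean of the 6 CGE arrays for the brightest probe set of each member (x axis). Points are arrays and lines are means. At E14.5 Olig1 lies 2.75 to 3.46 above its CGE mean, Olig2, Sox10 and Nkx2-2 lie 0.59 to 1.91 above theirs, and Sox8 lies below.

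From E16.5 to E18.5 the members differed from each other in CGE cells. Sox8 was higher at E18.5 than at E16.5 by 2.17 ± 0.37 (adjusted p = 0.0067), from 5.70, 5.89 and 6.36 at E16.5, and by 1.74 without CGE E18.5 replicate 1, still called. Olig1 was higher by 1.03 ± 0.26 (adjusted p = 0.03), with every array of both days below the filter level. This call was lost in 5 of 22 alternatives, over which the adjusted p ran from 0.016 to 0.113, among them the fits without CGE E16.5 replicate 2 (0.97) or 3 (0.87) and without CGE E18.5 replicate 2 (0.86) or 3 (0.98). Olig2 was 0.69 ± 0.21 (adjusted p = 0.06, 0.018 to 0.169 over the alternatives). Nkx2-2 was -0.022 (95% interval -0.52 to 0.47) and Sox10 0.048 (-0.45 to 0.55), and the other Sox10 probe sets were -0.039 and 0.25. Probe sets called higher were 2 of 7 members and 3.87% of all, and those with no overlap between the days were 3 of 7 (Olig1, Olig2 and Sox8) and 25.7% of all.

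The 4 comparisons share arrays in pairs, so they are not independent of each other. Whether the excess of MGE cells differed between the late and the early comparison was tested directly, which also compares the change over time in both origins, over intervals of unequal length. This test was passed by all 7 probe sets, against 6.65% of all probe sets called in this direction, a count again to be read with the filter in mind. The increase was 4.87 ± 0.32 for Nkx2-2, 4.54 ± 0.32 for Sox10, 3.29 ± 0.30 for Olig2, 3.08 ± 0.52 for Sox8 and 2.78 ± 0.37 for Olig1. For Sox8, which rose in both origins, the total rise was therefore larger in MGE cells. It covered a longer interval there, E14.5 to E18.5 against E16.5 to E18.5, so origin and length of interval cannot be told apart.

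SOX9, the third SoxE factor, is made by radial glia and astrocytes as well as by early oligodendrocyte precursors. Sox9 shared the direction of Sox8 in both origins, at 2.82 ± 0.27 in MGE maturation (adjusted p = 1.7e-05) and 1.28 in CGE maturation. Its late lineage difference was 0.87 ± 0.27 (adjusted p = 0.035). Of 13 listed relatives of the members, 5 could be tested, and 2, Sox9 and Sox6, were called higher in the late comparison, against 12.8% of all genes. This count was 1 with array weights, without MGE E18.5 replicate 1 or 3 and without each CGE E18.5 array. Sox4 and Sox11, SoxC factors of young neurons, lay between -0.20 and 0.15 in all comparisons. Sox6, a SoxD factor of both MGE interneurons and oligodendrocyte precursors, was higher in MGE cells on both occasions (2.00 ± 0.20 late) and did not change in a called way from E14.5 to E18.5 (-0.16). Sox5, which was not called in the late comparison (0.24), is the other SoxD gene, and it was 1.80 ± 0.33 in MGE maturation (adjusted p = 0.0028).

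Among 20 tested partners and upstream regulators of the members, a list that includes Sox5, Sox6 and Sox9, 8 were higher and 2 lower in MGE cells at E18.5, against 12.8% and 9.58% of the 8795 genes when each is represented by its brightest probe set. Without MGE E18.5 replicate 1, 5 were higher. Their median was 0.14, against -0.019 for all genes. The largest were Tcf7l2 (4.81 ± 0.22), a Wnt pathway factor that acts in differentiating oligodendrocytes, and Prrx1 (3.60 ± 0.20), a homeodomain factor of precursors. Both had group means above the filter level in MGE cells at E18.5 alone. Hes5, a Notch target that holds progenitors undifferentiated, was 2.45. Smaller differences were called for the E protein gene Tcf12 (0.45 ± 0.12, adjusted p = 0.015) and the coactivator gene Ep300 (0.47 ± 0.12, adjusted p = 0.019). The other E protein genes tested, Tcf4 (0.034) and Tcf3 (-0.76), the histone deacetylase genes Hdac1 (-0.11) and Hdac2 (-0.021) and the chromatin remodeller gene Smarca4 (-0.12) were not called. Nfib (-1.28) and Id4 (-1.18) were the lower ones, although both rose in MGE maturation (1.42 and 1.01). Id2 was among the higher ones (1.03 ± 0.20, adjusted p = 0.0027).

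Genes of oligodendrocyte precursors showed the late difference for 13 of 15 tested members, against 12.8% of all genes, with a median of 3.90 against -0.019. Lhfpl3 was 6.83 and Pdgfra, the growth factor receptor of precursors, 6.48. Gpr17, a receptor of precursors that are about to differentiate, was 5.23. Sapcd2 (-0.39) and Vcan (0.38) were not called. In the early comparison 4 of the 15 were higher and 1 lower, with a median of 0.19, against 4.04% and 5.74% of all genes. The higher ones were Lhfpl3 (3.28), Pdgfra (2.51), Cspg4 (1.34) and Pcdh15 (0.58). Gpr17, at 0.23, was not called. In MGE maturation 12 of the 15 rose, against 11.1% of all genes. The group means of Gpr17, Ednrb, Tnr and Pcdh15, among others, lay above the filter level in MGE cells at E18.5 alone. Such genes had to differ between groups, so the late and maturation counts are to be read with the filter in mind.

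Of 20 listed myelination genes and later targets of the members, 6 were tested, of which 4 were higher at E18.5 in MGE cells, against 12.8% of all genes. They were Bcas1 (4.24 ± 0.42), a gene of newly forming oligodendrocytes, Ugt8a (4.22 ± 0.34), an enzyme of myelin lipid synthesis, Erbb3 (3.79 ± 0.20), a neuregulin receptor and SOX10 target, and Cnp (2.84 ± 0.25). A further 4 genes were below the filter. Mbp, the gene of myelin basic protein, read 6.90 in MGE cells at E18.5 and 6.42 in CGE cells, and Mog read 4.70 and 4.97, with Cldn11 at 4.84 and 3.58. Without the filter, 7 genes of this list were called higher. The group means of Bcas1, Ugt8a and Erbb3 lay above the filter level in MGE cells at E18.5 alone. The count of 4 is therefore also to be read with the filter in mind.

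**Figure D4:**
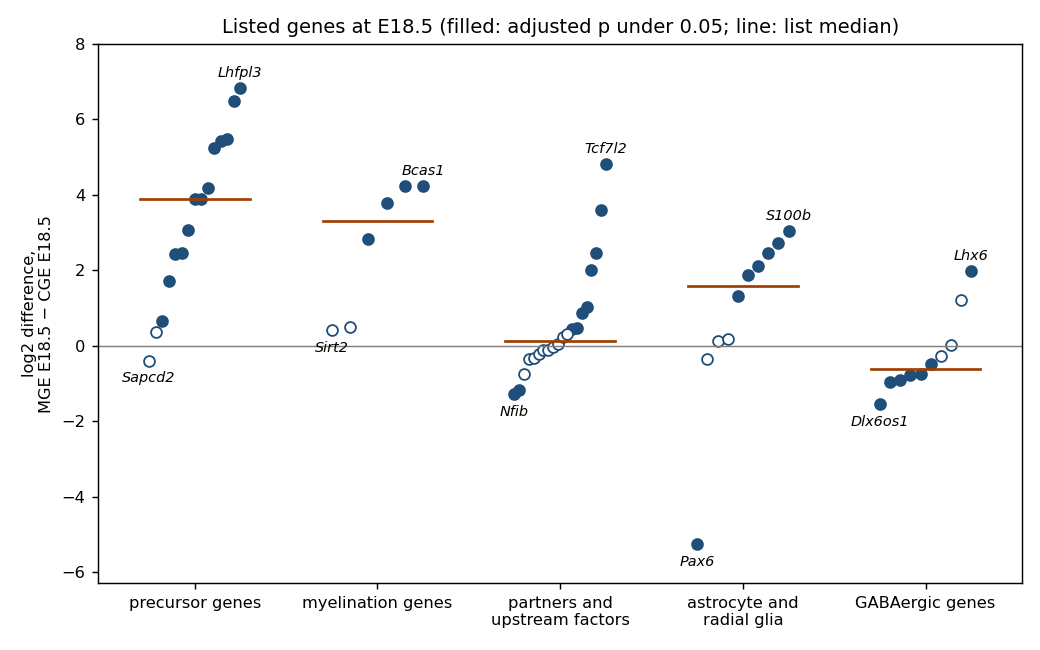
Log2 difference between MGE and CGE cells at E18.5 (y axis) for each tested gene of 5 lists (x axis), with filled points for an adjusted p under 0.05 and a line for the list median. The medians are 3.90 for precursor genes, 3.31 for myelination genes and 1.59 for astrocyte and radial glia genes, against 0.14 for partners and -0.62 for GABAergic genes.

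Replicate 3 of MGE E18.5 had the highest reading of its group for all 7 member probe sets, whereas it was highest for 38.1% of all probe sets tested. It was also highest for 13 of 15 precursor genes, and it was lowest for 10 of 10 GABAergic genes, against 32% of all probe sets. The members' median excess on this array over the mean of the other 2 was 0.64, against 0.02 for all probe sets. The median of the GABAergic genes was -0.35. At E14.5 no array was highest for more than 3 of the 7. In bulk RNA, fewer cells of a type and less RNA per cell cannot be told apart. Without replicate 3, the late differences were 6.27 for Olig1, 4.12 for Olig2, 5.87 for Sox10, 6.27 for Nkx2-2 and 2.39 for Sox8, all still called.

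**Figure D5:**
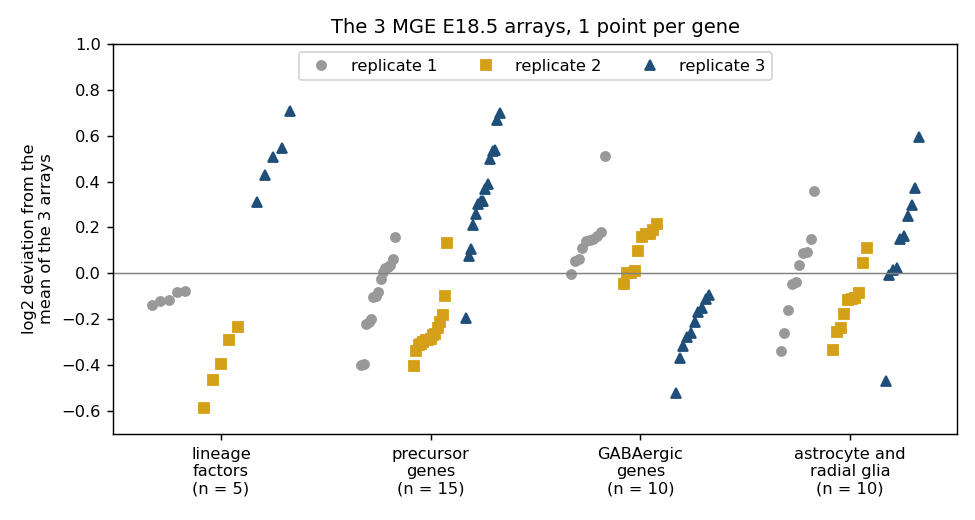
Log2 deviation (y axis) of each of the 3 MGE E18.5 arrays from their mean, 1 point per gene, for 4 gene lists (x axis). Replicate 3 lies above 0 for all 5 lineage factors and below 0 for all 10 GABAergic genes.

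Genes that mark other cells also changed across the groups, and their part in the results was not tested. The mean of the GABAergic list went from 11.74 to 11.86 in MGE cells at E14.5 to between 10.79 and 11.19 at E18.5, and 8 of its 10 genes were lower in MGE maturation, against 9.02% of all genes, a count that fell to 2 without MGE E18.5 replicate 3 and to 4 or 5 without an MGE E14.5 array. Sst, the somatostatin gene of MGE interneurons, fell by 2.71, and Lhx6, an MGE lineage factor, was not called (-0.28). The astrocyte and radial glia list reached array means of 9.55 to 9.81 in MGE cells at E18.5 against 8.79 to 8.95 in CGE cells. Of its 10 tested genes 6 were higher, S100b (3.05) and Slc1a3 (2.73) among them, against 12.8% of all genes. The group mean of S100b lay above the filter level in MGE cells at E18.5 alone. The count of 6 is therefore to be read with the filter in mind. Pax6 was lower (-5.25), against 9.58% of all genes. The astrocyte genes Aqp4 and Gja1 did not pass the filter, with highest arrays of 3.90 and 5.22. Sox10 and Sox8 are also made in the neural crest. Of the crest list 4 of 14 genes were tested, and 3 were higher in MGE cells at E18.5, against 12.8% of all genes. These, Ednrb, Pmp22 and Sox9, are also expressed in glia of the brain. The group means of Ednrb and Pmp22 lay above the filter level in MGE cells at E18.5 alone. The count of 3 is therefore to be read with the filter in mind. Cdh19 and Mitf, with highest arrays of 4.41 and 5.19, did not pass the filter. Of the microglia list Csf1r and C1qb were tested, at -0.86 and 0.51 in the late comparison, where neither was called, and both were higher at E18.5 in MGE cells (2.63 and 2.18) and in CGE cells (2.36 and 0.98). The vascular list had Cspg4, which precursors share, and Rgs5, a mural cell gene, which was not called in the late comparison (0.82) and rose in MGE maturation by 2.59 (adjusted p = 0.0009). The group means of C1qb and Rgs5 also lay above the filter level in MGE cells at E18.5 alone. Of the pallial neuron list, Neurod2 (0.96), Neurod6 (0.20) and Bcl11b (0.016) were tested and not called in the late comparison. Bcl11b had group means of 12.25 to 12.56 in all 4 groups, so it does not mark pallial cells among them. Tbr1, below the filter, had means of 6.05 in MGE and 5.13 in CGE cells at E18.5.

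Over the 12 arrays the profiles of Olig1, Olig2, Sox10 and Nkx2-2 resembled each other, with Pearson r of 0.948 to 0.991, and Sox8 stood further off, with r of 0.688 to 0.863. These coefficients describe a pattern that rests mostly on the 4 group levels, since the arrays fall into groups. The probe sets of Olig2, Sox10 and Nkx2-2 passed the filter through the MGE E18.5 arrays alone, so their likeness was partly built in. Among the genes named below, the group means of Gatm, Spry1, Ildr2, Pcdh15 and Prkg2, among others, also lay above the filter level there alone. The coefficients and ranks are to be read with the filter in mind. Sox10 ranked 5th of 8794 genes by likeness to Nkx2-2, and Sox8 ranked 534th. The genes most like Nkx2-2 were Gria3, an AMPA receptor subunit gene (r = 0.997), Gatm (0.994), Cspg4 and Spry1 (0.992 each) and Sox10 (0.991). Those most like Sox10 were Ildr2 (0.997), Metrn (0.996), Bmp7 (0.993), Cspg4 and Spry1 (0.992 each). Olig1 was closest to Decr1 (0.992), Pdgfra (0.986), the cyclin gene Ccnd1 (0.985), Cntn1 (0.981) and Ppp1r14c (0.974). Olig2 was closest to Gpx3 (0.996), Pmp22 (0.993), Pcdh15 (0.992), Metrn (0.991) and Prkg2 (0.989). The genes most like Sox8 were Denn2b and 1700086L19Rik (0.981 each), Mfge8 and Gnb4 (0.965 each) and S100a16 (0.959).

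The nearest genes on either side of the members that had passed the filter were looked up after the members' values had been seen. They mostly did not share the late difference. Around the Olig pair, Paxbp1 was -0.28 and Ifnar2 -0.15 in the late comparison, neither called. Beside Sox10, Polr2f was -0.16 and not called, and Pick1 was -0.39 ± 0.11 (adjusted p = 0.0299). Beside Nkx2-2, Xrn2 was -0.041 and not called, and Nxt1 was -0.48 ± 0.16 (adjusted p = 0.0499). Beside Sox8, Cacna1h was -0.15 and not called. The exception was Cerox1, a long noncoding RNA gene next to Sox8. It was higher in MGE cells at E18.5 by 2.38 ± 0.38 (adjusted p = 0.00087) and rose in MGE maturation by 3.03 ± 0.38 (adjusted p = 0.00017), and its profile had r = 0.937 with that of Sox8 over the 12 arrays. Unlike Sox8 it stayed dim in CGE cells, with means of 4.93 at E16.5 and 5.24 at E18.5. Its group mean lay above the filter level in MGE cells at E18.5 alone (7.62). Only neighbours that passed the filter were looked up, so its differences and its likeness to Sox8 are to be read with the filter in mind. Among the other neighbours, Ifnar2 (0.59) and Polr2f (0.41) were called higher in MGE maturation, while Paxbp1 (-0.50) and Cacna1h (-1.52) were called lower. In the early comparison Paxbp1 was called higher (0.73) and Polr2f lower (-1.07).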

How the data were processed

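The authors amplified cDNA of sorted cells with the NuGEN Ovation Pico system and hybridised it to Affymetrix mouse whole-genome arrays. The deposited log2 intensities had been background-corrected and normalised by the authors with Bioconductor, and the submitters' processing notes also list MAS5, so the algorithm is not settled. They ran from 3.23 to 14.97, with array medians of 7.75 to 7.81. Arrays have no read depth, and their number limits the precision. The sources used here do not state how the probe sets of this table were selected, and ranks, shares and counts of listed genes refer to them. After 34 controls were left out of 27094 probe sets, those with 1 gene symbol in the platform annotation were used (22339, against 571 with several and 4150 with none). The filter stated in the report left 16008 probe sets of 8795 genes. A model with 1 mean per group over all 12 arrays was fitted in limma 3.58.1 under R 4.3.3 (8 residual and 3.66 prior degrees of freedom), two-sided, with Benjamini-Hochberg adjustment over the 16008 probe sets in each of 5 comparisons. Calls are at an adjusted p below 0.05. The script was tested on simulated data. P-values measure the spread between these arrays.

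Where 1 probe set stands for a gene, it is the brightest of those that passed the filter. Named genes were all member probe sets, the 5 genes most correlated with each member, the genes of each list with the largest differences, and a fixed set of family members, markers and regulators wherever measured. Chromosomal neighbours, general partners and list members that were not called were named after their values were seen. The members and lists were chosen with earlier results of these data known. The alternatives were other filters, scalings, weights, variance models and sample sets, 1 probe set per gene, a replicate block and leaving out each array. Replicate numbers showed no pairing of the arrays over all groups.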

Additional observations from a re-analysis of the deposited data

Results flagged for a closer look

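The lineage difference changed between the early and the late comparison for all 7 member probe sets, by a test of that change (limma, adjusted p from 2.9e-06 to 0.0028, n = 3 arrays per group). The change was 2.78 for Olig1, 3.29 for Olig2, 4.87 for Nkx2-2 and 3.08 for Sox8. For Sox10 it was 4.54 (1451689_a_at), 2.51 (1424985_a_at) and 1.72 (1425369_a_at). In each case the early difference was subtracted from the late one, so that a positive value is a larger excess of MGE cells at E18.5. The probe sets of Olig2, Sox10 and Nkx2-2 passed the filter through the MGE E18.5 arrays alone. The count of 7 is to be read with that in mind. The earlier arrays differ in day as well as origin, E14.5 for MGE and E16.5 for CGE cells. No group was tested for single outlying arrays, since groups of 3 are too small.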

How the results depend on the processing

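Every call of a member in the late and early lineage comparisons, in MGE maturation and in the change of the lineage difference had the same direction and the same side of the threshold under each of the alternatives that could be run, except that the dimmer Sox10 probe sets were not tested with a filter at the 60th percentile or with 1 probe set per gene, which left 5 probe sets called. The number of member probe sets called higher in CGE maturation was 2, and it was 1 with only the compared groups in the fit, 3 with a filter at the 60th percentile and 1 to 3 when an array was left out. Differences near 0 in CGE maturation changed sign. Sox10 (1451689_a_at) went from 0.048 to -0.023 with quantile normalisation and ranged from -0.041 to 0.15 when an array was left out, and 1424985_a_at (-0.039) ranged from -0.15 to 0.12. Nkx2-2 went from -0.022 to 0.018 with array weights and ranged from -0.12 to 0.10. The E14.5 step of Olig2 was 21.6% with CGE E16.5 and 9.24% with CGE E18.5 as the base. That of Sox8 was -37.0% of its E18.5 step, with -6.84% and -91.0% for these bases and -47.5% to -24.4% when an array was left out. The cause was not tested. Same-numbered arrays of different groups had deviations correlated at -0.13 to 0.27 (median -0.0045). Those of different numbers ran from -0.29 to 0.23 (median -0.0046), so over all groups the numbers showed no pairing. Between MGE E14.5 and CGE E16.5 the same-numbered values were 0.022, 0.27 and 0.26, against -0.29 to 0.17 for different numbers. Pairing within these groups was not tested. With the replicate block the members called higher were 7 of 7 in the late comparison, 4 of 7 in the early one, 7 of 7 in MGE maturation and 2 of 7 in CGE maturation. The block left 1 of 5 relatives higher in the late comparison in place of 2. Of 60 counts of other gene lists, 24 changed by over 1.5 times under at least 1 alternative. Dim readings limit the members at E14.5 and in CGE cells.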
